A study of Rattus norvegicus with 6 samples.

Results

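ISG15 is a small ubiquitin-like protein that interferon induces and that cells attach to other proteins. The genes described here are Isg15 itself and 6 interferon-induced genes around it: the activating enzyme Uba7, the ligases Herc6 and Trim25, the deconjugating protease Usp18, and Parp9 and Ifi35, which act in the same response. They were chosen by name, as every probe set that the annotation of the rat whole-genome GeneChip assigns to 1 of these 7 symbols or an older alias and to no other gene. This gave 9 probe sets of the 31042 on the array other than controls: 3 for Uba7 and 1 for each other gene. Of these, 7 probe sets, 1 per gene, passed a filter on low signal and were tested among 18625 probe sets. The other 2 belong to Uba7 and are given by their signals alone.

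The cells were 3Y1, a fibroblast line from rat embryos, and expression was measured in 3 groups of 2 arrays, each pair called biological replicates by the labels. Vector culture is 3Y1 carrying an empty vector, and MUC1-CD culture is 3Y1 carrying a vector that expresses MUC1-CD, the intracellular tail of the mucin MUC1, both stably transfected and both grown in serum-containing medium. MUC1-CD tumors are the MUC1-CD cells grown under the skin of the hindlimb of female athymic mice. There was no tumor of Vector cells among the arrays, so the tumor is compared with cultures only. Whether a transfected line was 1 clone, the age of the mice and whether an array held 1 tumor or several are not stated in these sources. Athymic mice lack mature T cells but keep other immune cells, and a tumor holds mouse tissue as well as rat cells. RNA of tumors was also prepared by another route than RNA of cultures, with an RNA preservative and columns, so growth in the mouse and preparation cannot be told apart.

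The Vector arrays stood apart in a measure of RNA integrity. The signal of the Gapdh control probes at the 3′ end was 11.5 and 17.8 times that at the 5′ end on the Vector arrays, against 1.11 to 1.18 times on the other 4. The same ratio for the actin control probes set the Vector arrays apart from each other: it was 4.15 for replicate 1, near the 2.97 to 3.37 of the other 4, and 41.8 for replicate 2. The replicates also differed more within Vector, with a standard deviation (SD) of the log2 difference of 0.616 over probe sets, while tumors had 0.284 and MUC1-CD culture 0.257. This cannot be told apart from the transfection, and it touches each comparison with Vector below. The fibroblast genes Vim and Fn1 were high on all 6 arrays, with Vim between 20239 and 27322 and Fn1 between 12355 and 13757. Of 10 fibroblast genes tested, 2 were higher and 5 lower in MUC1-CD culture than in Vector culture (limma, adjusted p under 0.05). Vim, Col1a1 and Col1a2 were among the lower ones. Of all genes, 21.2% were higher and 24.9% lower there.

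Interferon acts through its receptor on a shared promoter element, and cells then make ISG15 and the enzymes that use it. Uba7 activates ISG15, Ube2l6 carries it, and a ligase places it on proteins, a role that Herc6 fills in mice and that TRIM25 has for some substrates. Usp18 takes ISG15 off again and, bound to the receptor chain IFNAR2, also dampens type I interferon signalling. PARP9 works as a pair with the ubiquitin ligase DTX3L, and IFI35 binds the related protein NMI.

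Promoter sequence is shown first, because these genes are described as interferon-induced. No response to interferon was measured in these samples. RefSeq promoter windows of the GRCr8 build, from 250 bases before to 50 after the start of the gene, were matched for 5 of the 7 genes and 10 of 12 partners of the system. Isg15 and Usp18 had no window, so the modifier and its protease were not searched. Interferon-stimulated response elements were searched for as AAANNGAAA on either strand, which occurs in 11.8% of 33469 such windows, and as a core form with a further G before it, which occurs in 3.92%. The core form was found in those of Dtx3l and Nmi, the partners of Parp9 and Ifi35, and in none of the 5 members'. The shorter form, which lies within every match of the core, was also found in 1 member, Uba7. The gamma-activated site (TTCNNNGAA, which reads the same on the other strand, 8.87% of windows) was found in that of the receptor chain Ifnar2. The stretches of 30 bases that hold the matches are printed 5′ to 3′ on the strand of the gene, with the matched letters in capitals. They lie at chr8:117543922-117543951 (plus strand) for Uba7, chr11:78320225-78320254 (plus) for Dtx3l, chr3:56848624-56848653 (minus) for Nmi and chr11:44099520-44099549 (plus) for Ifnar2.
Uba7: gaaccaactctgtctagTTTCACTTTtggt
Dtx3l: cccgggaaacGAAACTGAAActttgcctct
Nmi: tgaaataaacGAAAGTGAAAgaacggcctg
Ifnar2: cTTCCTGGAAgacgggagtacacaccggca
The match in Uba7 runs on the opposite strand and starts 38 bases after the gene's start. That of Dtx3l starts 11 bases after the start and that of Nmi 100 bases before it. No match of these 3 motifs was found in the windows of Trim25, Herc6, Parp9 and Ifi35, which says only that these letters are not in those windows.

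Across the 3 groups the 7 genes were not called together, and differences between genes were not tested. In MUC1-CD culture against Vector culture, Usp18, Trim25 and Herc6 rose, Parp9 and Ifi35 fell, and Isg15 and Uba7 passed no test. Between MUC1-CD culture and tumors, Isg15 and Uba7 rose and the other 5 passed no test. Signals below are MAS5 values, a linear array intensity. A change is a difference of 2 group means on the log2(signal + 16) scale, given with its standard error (SE) and the adjusted p of limma. A gene is said to rise or fall where that adjusted p is under 0.05. The added 16 makes the change of a weak gene look smaller than it is. Fold values are ratios of the group means of the signal. Where groups are said not to overlap, this is a description only, because the share of all genes that do not overlap was not counted. It sets no member apart. Between tumors and MUC1-CD culture no tested member probe set overlapped, not even that of Ifi35 with a change of 0.05 (adjusted p = 0.924, limma).

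**Figure D1:**
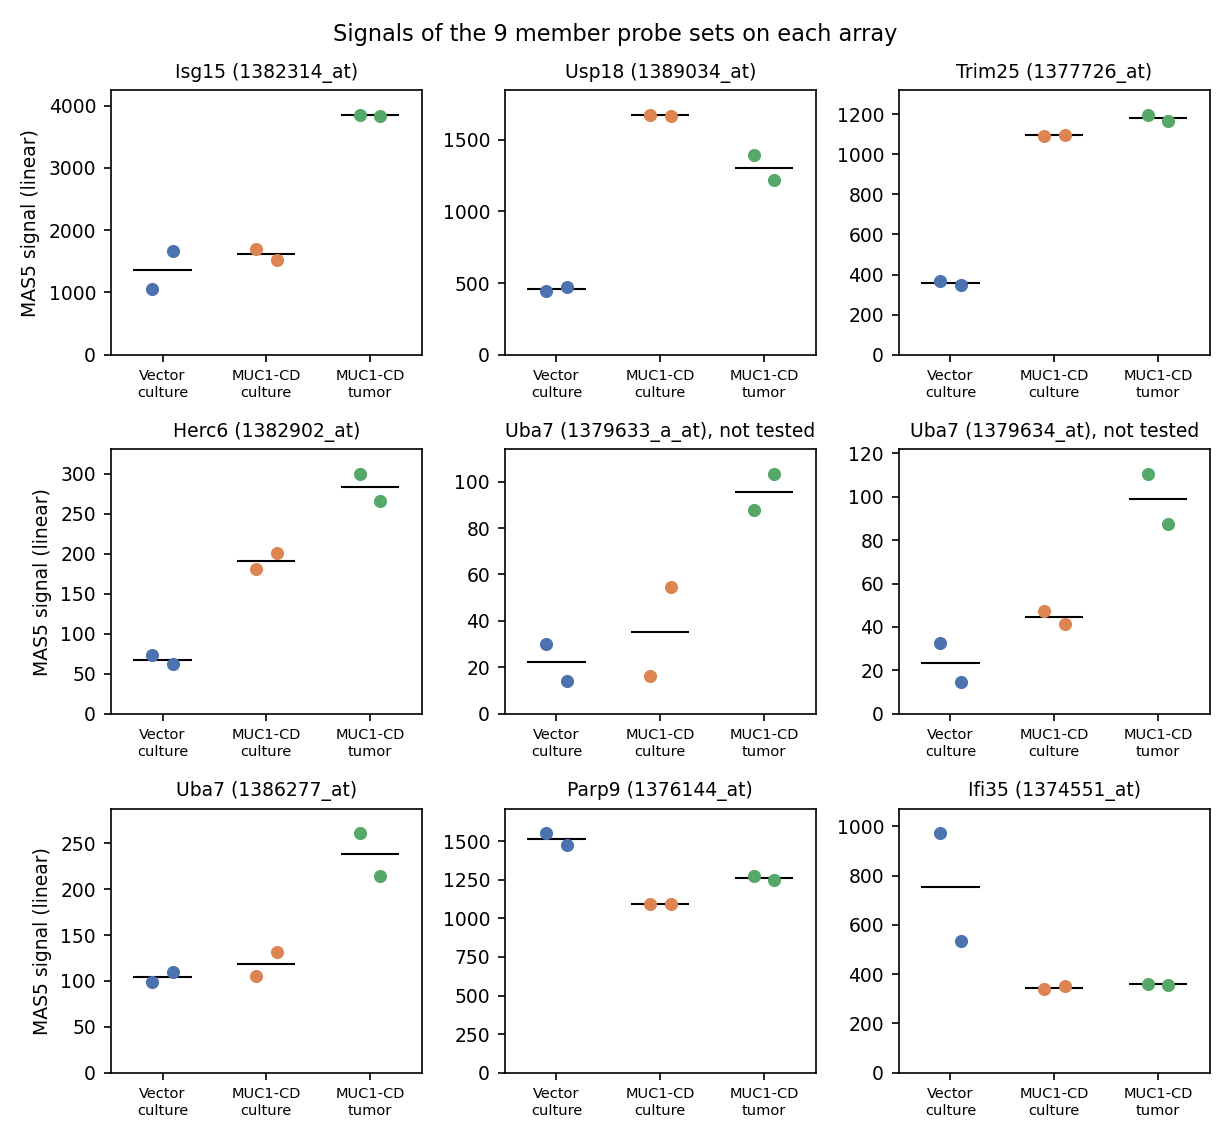
MAS5 signal (linear, from 0) of each of the 9 probe sets on each array, with 2 arrays per group as points and the group mean as a line. Isg15 and Uba7 are highest in the tumors, Usp18, Trim25 and Herc6 are higher in both MUC1-CD groups than in Vector culture, and Parp9 and Ifi35 are highest in Vector culture.

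Isg15, the modifier itself (probe set 1382314_at, chromosome 5), had a signal far above the filter in all cultures. Its signal was 1060.4 and 1671.9 in Vector culture, 1700.8 and 1517.8 in MUC1-CD culture and 3855.5 and 3827.4 in tumors. The cultures overlapped, and both tumors lay above all 4 cultures. Between tumors and MUC1-CD culture Isg15 rose by 1.25 ± 0.21 (SE, n = 2 per group), a 2.39-fold difference (adjusted p = 0.0108, limma). The 95% interval of the change ran from 0.75 to 1.75. Of the genes tested, 95.1% had a lower change in this comparison. Against Vector culture the tumors were higher by 1.52 (adjusted p = 0.0013, limma). MUC1-CD culture against Vector culture gave 0.27 ± 0.21 (adjusted p = 0.335, limma), with an interval from −0.23 to 0.77. That value rested on which Vector array was used: it was −0.06 without Vector replicate 1 and 0.59 (adjusted p = 0.000365, limma) without Vector replicate 2, within a range of adjusted p of 0.000365 to 0.852 over 15 other settings. The tumor rise kept its size (1.17 to 1.33) but lost its call without any 1 of the 4 tumor and MUC1-CD culture arrays. Its adjusted p was then 0.0793 and 0.106 without MUC1-CD culture replicates 1 and 2, and 0.105 and 0.0977 without tumor replicates 1 and 2. Over all 15 settings that p ran from 7.07e-07, with only the 4 arrays compared, to 0.106.

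Uba7, the enzyme that activates ISG15 (probe set 1386277_at, chromosome 8), had the pattern closest to Isg15 among the members. Its signal was 98.8 and 110.2 in Vector culture, 105.6 and 131.8 in MUC1-CD culture and 261.7 and 214.4 in tumors. Again the cultures overlapped and the tumors lay above them. It rose by 0.92 ± 0.21 in tumors against MUC1-CD culture, 2.01-fold (adjusted p = 0.0333, limma), and by 1.07 against Vector culture (adjusted p = 0.00619, limma). MUC1-CD culture differed from Vector culture by 0.16 ± 0.21 (adjusted p = 0.586, limma). The 2 probe sets of Uba7 below the filter were weak and not tested. Probe set 1379633_a_at gave 30.2 and 14.2, 16.1 and 54.5, and 87.8 and 103.5 in Vector culture, MUC1-CD culture and tumors. Probe set 1379634_at gave 32.4 and 14.8, 47.5 and 41.5, and 110.7 and 87.6 in the same order. On all 3 probe sets both tumor arrays were above all 4 culture arrays. The share of all probe sets that separate in this way was not counted, so this adds little to the test. The call of Uba7 in tumors against MUC1-CD culture was close to its threshold. It was lost without a signal filter (adjusted p = 0.0685), with each array divided by its median (0.66, adjusted p = 0.0636) and after quantile normalization (adjusted p = 0.0538). The replicate block also ended it (adjusted p = 0.0591). It was also lost without MUC1-CD culture replicate 1 or 2 (adjusted p = 0.24 and 0.138) and without tumor replicate 1 or 2 (0.226 and 0.126). Over 14 other settings the adjusted p of limma ran from 0.00312 to 0.24. The change against Vector culture was lost with median scaling (0.53, adjusted p = 0.0629) and without tumor replicate 1 (0.94, adjusted p = 0.0572), over a range of 0.0018 to 0.0629.

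Herc6, the main ISG15 ligase of mice (probe set 1382902_at, chromosome 4), was weak in Vector culture and stepped up across the groups. Its signal was 72.9 and 62.1 in Vector culture, 180.9 and 200.8 in MUC1-CD culture and 300.3 and 266.4 in tumors. No 2 groups overlapped. It rose by 1.31 ± 0.19 in MUC1-CD culture against Vector culture, 2.83-fold (adjusted p = 0.00214, limma), and by 1.84 in tumors against Vector culture (adjusted p = 0.000426, limma). Both calls held in all 14 other settings that could be fitted. The further step from MUC1-CD culture to tumors was 0.53 ± 0.19 and missed the threshold (adjusted p = 0.115, limma). Its interval ran from 0.07 to 1.00. That step passed with only the 4 arrays compared (adjusted p = 0.0179) and without Vector replicate 1 or 2 (0.0257 and 0.0249), over a range of 0.0179 to 0.456.

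Trim25, a ubiquitin ligase that activates the RNA sensor RIG-I and can also attach ISG15 (probe set 1377726_at, chromosome 10), separated the Vector arrays from the other 4. Its signal was 365.7 and 350.2 in Vector culture, 1089.2 and 1097.7 in MUC1-CD culture and 1197.8 and 1166.8 in tumors. It rose 3.05-fold in MUC1-CD culture against Vector culture, by 1.57 ± 0.13 (adjusted p = 0.000201, limma). In tumors against Vector culture it rose by 1.68 (adjusted p = 0.000118, limma). Both calls held in all 15 other settings. Tumors and MUC1-CD culture were within 0.11 ± 0.13 of each other (adjusted p = 0.599, limma), with an interval from −0.19 to 0.41.

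Usp18, the protease that removes ISG15 (probe set 1389034_at, chromosome 4), had the largest rise of the members in MUC1-CD culture. Its signal was 441.3 and 470 in Vector culture, 1674.6 and 1663.9 in MUC1-CD culture and 1391.2 and 1215.9 in tumors. No 2 groups overlapped, and the tumors lay between the cultures. The rise in MUC1-CD culture was 1.84 ± 0.13, or 3.66-fold (adjusted p = 0.000138, limma), and 95.9% of genes had a lower change. Against Vector culture the tumors were higher by 1.48 (adjusted p = 0.000221, limma). Both calls held in all 15 other settings. From MUC1-CD culture to tumors the change was −0.36 ± 0.13 and missed the threshold (adjusted p = 0.119, limma). Its interval was −0.67 to −0.04. This lower value passed with only the 4 arrays compared (adjusted p = 0.00775), with each array divided by its median (−0.62, adjusted p = 0.0188) and without Vector replicate 1 or 2 (0.00983 and 0.0101), over a range of 0.00775 to 0.481. Isg15 was thus highest in tumors and its protease in MUC1-CD culture, and this difference between the genes was not tested.

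**Figure D2:**
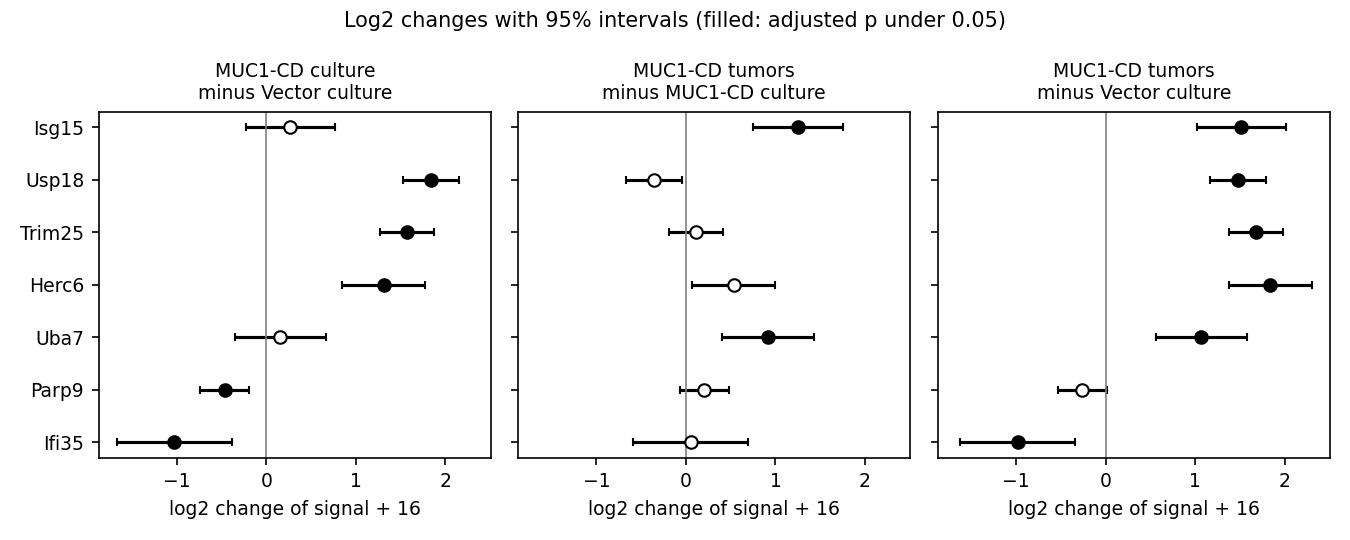
Change of each member in the 3 comparisons, as a difference of log2(signal + 16) on the x axis, with the 95% interval from limma (n = 2 arrays per group); filled points have an adjusted p under 0.05. In MUC1-CD culture the 3 filled rises are Usp18, Trim25 and Herc6, while in tumors against MUC1-CD culture only Isg15 and Uba7 are filled.

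Parp9 (probe set 1376144_at, chromosome 11) encodes a macrodomain protein that pairs with DTX3L. Its signal was 1556.1 and 1473.3 in Vector culture, 1093.3 and 1091.3 in MUC1-CD culture and 1272.2 and 1249.9 in tumors, with no overlap between any 2 groups. It fell by 0.47 ± 0.11 in MUC1-CD culture, to 0.721 of the Vector mean (adjusted p = 0.016, limma). The call was lost without MUC1-CD culture replicate 1 or 2 (adjusted p = 0.108 and 0.114) and narrowly without tumor replicate 1 or 2 (0.0506 and 0.0504), over a range of 0.00119 to 0.114. Tumors against MUC1-CD culture gave 0.20 ± 0.11 (adjusted p = 0.275, limma), with an interval from −0.07 to 0.48. Tumors against Vector culture gave −0.26 (adjusted p = 0.0981, limma), which passed with each array divided by its median (−0.85, adjusted p = 0.00104) and without Vector replicate 2 (−0.30, adjusted p = 0.0207), over a range of 0.00104 to 0.306.

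Ifi35 (probe set 1374551_at, chromosome 10), a leucine zipper protein that binds NMI, fell in both MUC1-CD groups. Its signal was 975.1 and 536.2 in Vector culture, 338.8 and 352.6 in MUC1-CD culture and 361 and 356.6 in tumors. Both Vector arrays were above the other 4, but they differed from each other by more than any other replicate pair of a tested member. The fall in MUC1-CD culture was 1.03 ± 0.27, to 0.457 of the Vector mean (adjusted p = 0.0198, limma). It was 0.61 without Vector replicate 1 and 1.45 without Vector replicate 2, so its size rests on the Vector array used. The call was lost without MUC1-CD culture replicate 1 or 2 (adjusted p = 0.104 and 0.0962), over a range of 7.5e-06 to 0.104. In tumors against Vector culture the fall was 0.98 (adjusted p = 0.0215, limma). It was 0.56 without Vector replicate 1 and 1.40 without Vector replicate 2, and the call was lost without tumor replicate 1 or 2 (adjusted p = 0.0998 and 0.102), over a range of 8.47e-06 to 0.102. Tumors and MUC1-CD culture differed by 0.05 ± 0.27 (adjusted p = 0.924, limma), with an interval from −0.59 to 0.69.

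As counts, 3 of the 7 members rose and 2 fell in MUC1-CD culture against Vector culture. Among all 10037 genes tested, 21.2% rose and 24.9% fell in this comparison, 46.1% in all, so a call by itself sets no member apart. The step to tumors from MUC1-CD culture had 2 of 7 rising and 0 falling by limma. The background there was 9.82% of genes rising and 8.97% falling, 18.8% in all. At an unadjusted p under 0.05, 3 members were higher and 1 was lower, where 18.6% of all genes were higher and 16.5% lower. In tumors against Vector culture 5 of 7 rose and 1 fell, against 24.8% and 26.6% of genes, 51.4% in all. The 3 comparisons share arrays, so these counts are not independent of each other. Without MUC1-CD culture replicate 1 or 2, 3 members were called in MUC1-CD culture against Vector culture. For tumors against MUC1-CD culture 0 were called without any 1 of the 4 arrays compared, and 4 without Vector replicate 1 or 2 or with only those 4 arrays. With the replicate block 1 was called, Isg15.

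The median change of the 7 members was 0.27 in MUC1-CD culture against Vector culture, 0.20 in tumors against MUC1-CD culture and 1.48 in tumors against Vector culture. The medians of all genes tested were −0.04, 0.03 and −0.02. Scaling matters for values of this size. Dividing each array by its median signal instead of keeping the authors' scaling moved the median of all probe sets from 0.07 to −0.24, from 0.05 to −0.20 and from 0.12 to −0.45 in the 3 comparisons. The share of called probe sets that were higher went from 54.7% to 33.7%, from 53.9% to 22.9% and from 56.5% to 25.7%. With quantile normalization these shares were 50.7%, 46.5% and 47.9%. Under median scaling the members' own median became −0.05, −0.06 and 0.90, so its sign in the first 2 comparisons depends on the scaling. The changes of Isg15 and Uba7 in MUC1-CD culture then became −0.05 and −0.13, and those of Trim25, Parp9 and Ifi35 in tumors against MUC1-CD culture −0.16, −0.06 and −0.21. Each of those 5 missed the threshold under either scaling. After quantile normalization Uba7 in MUC1-CD culture (−0.11) and Ifi35 in tumors against MUC1-CD culture (−0.04) also changed sign.

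**Figure D3:**
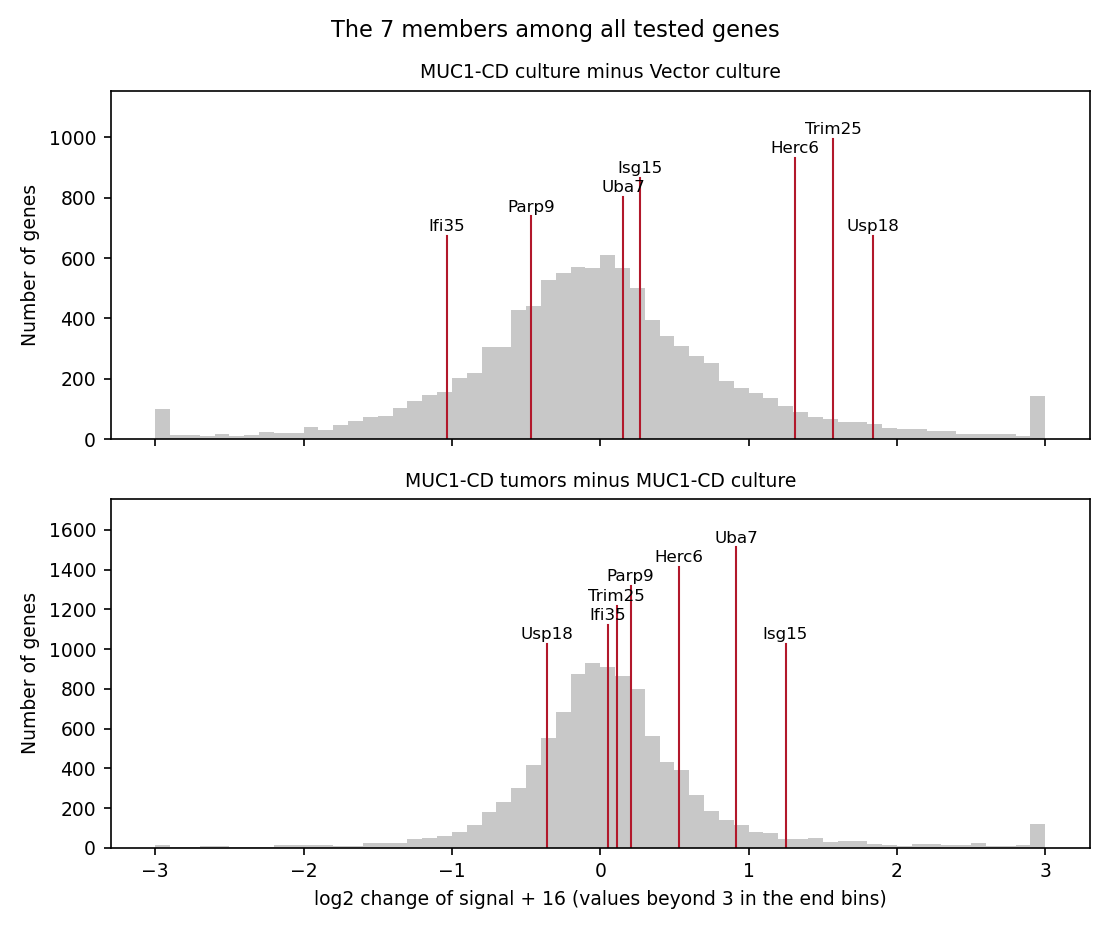
Histogram of the change (difference of log2(signal + 16), x axis) of all 10037 genes tested (number of genes, y axis), with the 7 members as lines; line heights carry no value. In the upper panel Usp18, Trim25 and Herc6 lie in the right tail and Ifi35 in the left part, and in the lower panel Isg15 and Uba7 lie to the right while the other 5 lie nearer the centre.

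How alike the members' patterns were was measured as the Euclidean distance between their log2(signal + 16) values over the 6 arrays, each centred on its mean, as a description with no test. The closest pair was Trim25 and Herc6 (0.453), followed by Usp18 and Trim25 (0.493) and by Isg15 and Uba7 (0.692). The farthest pair was Usp18 and Ifi35 (3.18). Among genes outside the members, the 5 closest to Isg15 were Mitf (0.207), Ralgds (0.326), Tanc2 (0.329), Ccdc125 (0.333) and Hr (0.356). None of these 5 is on the interferon lists used here. Mitf, a transcription factor of melanocytes and osteoclasts, had signals of 442.8 and 633.9 in Vector culture, 688.1 and 676.6 in MUC1-CD culture and 1518 and 1455 in tumors. The values share 6 arrays and their scaling, and likeness in pattern carries no information on shared function.

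The partners of the system moved both ways too. Of a list of 12, 8 had their expression tested, and no expression value of the other 4 is used here. In MUC1-CD culture against Vector culture Ube2l6, Stat2 and Arih1 rose, Rnf213 and Nmi fell, and Dtx3l, Ifnar2 and Mavs passed no test, with a median change of 0.27. Of all genes, 21.2% rose and 24.9% fell there. Ube2l6, the enzyme that carries ISG15 from Uba7 to the ligase, rose in MUC1-CD culture, as Usp18 and Trim25 did. Its signal was 523.8 and 346.3 in Vector culture, 1187.8 and 1327 in MUC1-CD culture and 1105.7 and 1132.3 in tumors. The rise in MUC1-CD culture was 1.52 ± 0.20, or 2.89-fold (adjusted p = 0.00141, limma), and tumors differed from MUC1-CD culture by −0.16 (adjusted p = 0.635, limma).

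Stat2, which carries the interferon signal to the nucleus and binds Usp18, had signals of 298.6 and 252.1 in Vector culture, 714.9 and 723.9 in MUC1-CD culture and 557.5 and 503.3 in tumors. It rose by 1.34 ± 0.16 in MUC1-CD culture (adjusted p = 0.000809, limma), and its second probe set rose by 0.84 (adjusted p = 0.00348, limma), a value of 0.53 with each array divided by its median. For Ifnar2, the receptor chain that Usp18 binds, the probe sets differed. The brighter gave 0.29 (adjusted p = 0.12, limma) and the other rose by 0.84 (adjusted p = 0.00437, limma). Both rested on single arrays: the brighter passed without Vector replicate 2 (0.43, adjusted p = 0.00366, over a range of 0.00366 to 0.882), and the other lost its call without MUC1-CD culture replicate 2 (adjusted p = 0.0586, over a range of 0.000395 to 0.0586) and was 0.53 with median scaling. Arih1, a ubiquitin ligase, rose on its brightest probe set by 0.70 (adjusted p = 0.00438, limma) and fell on another by 0.91 (adjusted p = 0.0211, limma). Its other tested probe sets were higher by 0.42 and 0.51 and missed the threshold (adjusted p = 0.0591 and 0.178, limma), so the probe sets disagree on its direction. The rise was lost with each array divided by its median (0.38, adjusted p = 0.0509), and the fall without MUC1-CD culture replicate 1 or 2 (adjusted p = 0.108 and 0.103), over ranges of 6.37e-05 to 0.0509 and 0.00355 to 0.108.

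Rnf213, a very large ubiquitin ligase that binds proteins carrying ISG15, fell at each step. Its signal was 2974 and 3706.9 in Vector culture, 1588 and 1523.2 in MUC1-CD culture and 746.7 and 705.6 in tumors, with no overlap. It fell by 1.09 ± 0.14 in MUC1-CD culture (adjusted p = 0.00125, limma) and by a further 1.08 ± 0.14 in tumors (adjusted p = 0.00424, limma). The second fall kept its size but lost its call without MUC1-CD culture replicate 1 or 2 (adjusted p = 0.0638 and 0.0554) or tumor replicate 1 or 2 (0.0538 and 0.0613), over a range of 3.38e-06 to 0.0638. A second probe set of Rnf213 fell in the same 2 comparisons, by 0.87 and 0.85 (adjusted p = 0.00821 and 0.0237, limma). Its first call was lost without MUC1-CD culture replicate 1 or 2 (adjusted p = 0.0554 and 0.0672), over a range of 7.09e-05 to 0.0672. Its second was lost without MUC1-CD culture replicate 1 or 2 (0.178 and 0.154) or tumor replicate 1 or 2 (0.185 and 0.0851), over a range of 0.000167 to 0.185. In tumors against MUC1-CD culture Rnf213 was the 1 partner called of 8, and 0 partners rose by limma (all genes: 9.82% rose and 8.97% fell). At an unadjusted p under 0.05, 1 partner was higher and 2 were lower, against the 18.6% and 16.5% of all genes given above. The partners' median change was −0.22.

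Nmi and Dtx3l bind the products of Ifi35 and Parp9, the members that fell in MUC1-CD culture, and carry the response element shown above. Nmi had signals of 893.8 and 1181.9 in Vector culture, 552.3 and 584.8 in MUC1-CD culture and 898.5 and 794.5 in tumors. It fell by 0.84 ± 0.17 in MUC1-CD culture (adjusted p = 0.00813, limma), a call lost without MUC1-CD culture replicate 1 or 2 (0.0672 and 0.0551), over a range of 3.42e-05 to 0.0672. From MUC1-CD culture to tumors it was higher by 0.56 (adjusted p = 0.075, limma) on this probe set and rose by 0.76 (adjusted p = 0.0318, limma) on the other. That rise was lost with each array divided by its median (0.49, adjusted p = 0.0874), without MUC1-CD culture replicate 1 or 2 (0.238 and 0.0805) and without tumor replicate 1 or 2 (0.183 and 0.191), over a range of 0.00127 to 0.238. Dtx3l had signals of 1021.4 and 1432.6, 947.1 and 931, and 953.9 and 975.4 in the same order of groups. Its change in MUC1-CD culture was −0.36 ± 0.18 (adjusted p = 0.14, limma). It passed without Vector replicate 1 (−0.60, adjusted p = 0.000471) and with each array divided by its median (−0.68, adjusted p = 0.0199). Parp9 and Dtx3l are neighbours on chromosome 11 in GRCr8, and are transcribed in opposite directions from adjoining starts.

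**Figure D4:**
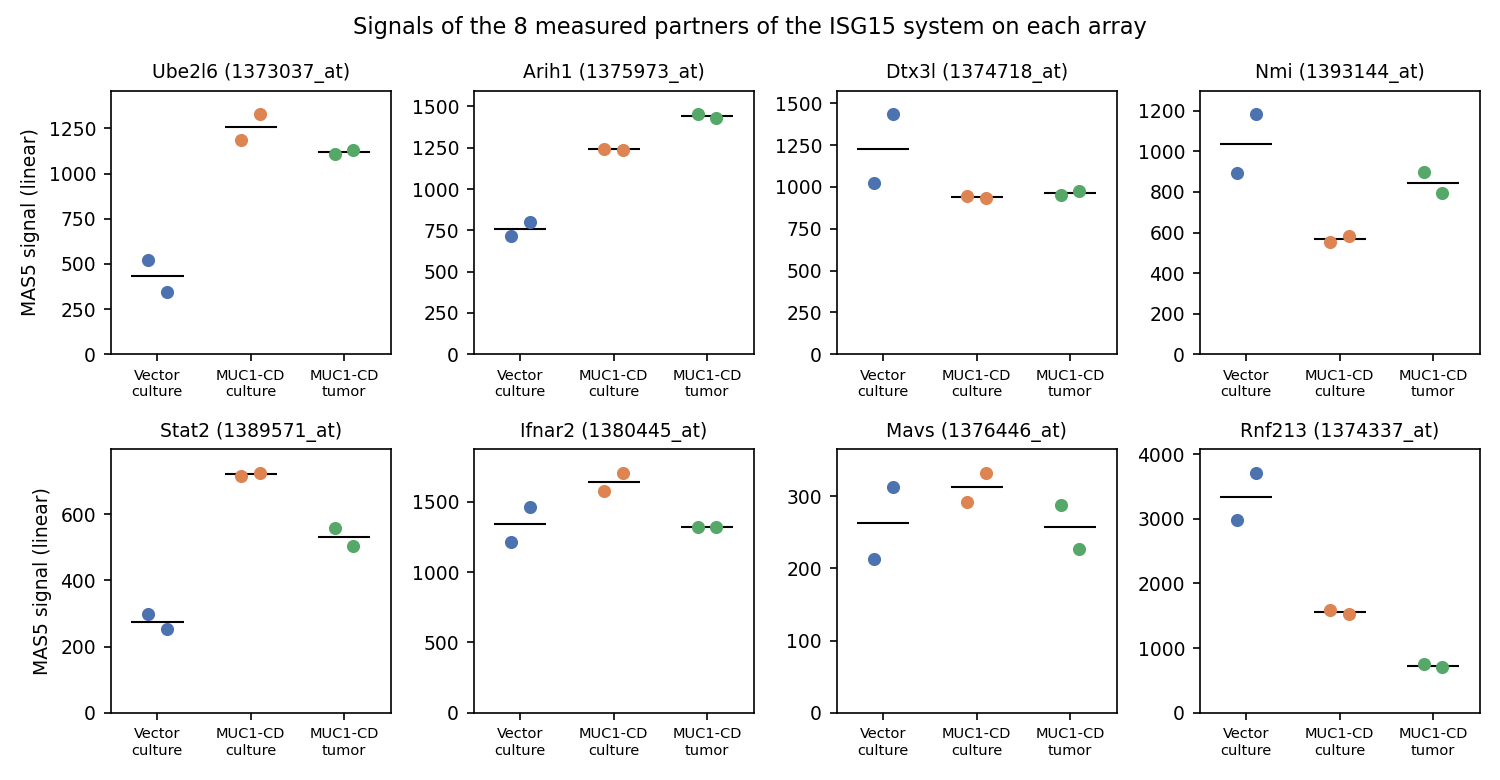
MAS5 signal (linear, from 0) of the brightest probe set of the 8 measured partners on each array, 2 arrays per group as points with the group mean as a line. Ube2l6 and Stat2 are higher in both MUC1-CD groups than in Vector culture, Rnf213 is lower in each following group, and Nmi is lowest in MUC1-CD culture.

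The wider set of interferon-induced genes, a list of 48 without the members and partners, had 41 tested. Of these, 11 rose and 7 fell in MUC1-CD culture against Vector culture (all genes: 21.2% and 24.9%), with a median of 0.25. From MUC1-CD culture to tumors 15 rose and 0 fell by limma (all genes: 9.82% and 8.97%), with a median of 0.62. At an unadjusted p under 0.05, 25 were higher and 4 were lower (all genes: 18.6% and 16.5%). In tumors against Vector culture 22 rose and 3 fell (all genes: 24.8% and 26.6%), with a median of 0.83. The counts follow the arrays used. In the comparison of tumors with MUC1-CD culture they lay between 5 and 6 called without any 1 of the 4 arrays compared, and at 31 (27 higher, 4 lower) without either Vector array or with only those 4. In the comparison of MUC1-CD culture with Vector culture, 9 and 8 were called without MUC1-CD culture replicates 1 and 2, and 28 without either Vector array.

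Ifit2 and Ifit3, which bind foreign RNA, rose at each step. These 2 genes, and Gbp2 and Ifitm1 below, were picked from the list for a small p over the 3 groups. Their calls follow from that choice and say nothing about the rest of the list. Ifit2 had signals of 85.4 and 96.8 in Vector culture, 379.6 and 391.2 in MUC1-CD culture and 1300.8 and 1315.9 in tumors. It rose by 1.91 and then by 1.72 (adjusted p = 0.00019 and 0.000869, limma). Ifit3 rose by 2.27 and then by 1.64 (adjusted p = 0.000313 and 0.00365, limma), the first being 1.51 with an added 64 in place of 16. Its second rise was lost without MUC1-CD culture replicate 1 (adjusted p = 0.0562) and without tumor replicate 2 (0.0604), over a range of 1.16e-05 to 0.0604. Gbp2 and Ifitm1, antiviral genes of the GTPase and membrane protein families, were highest in tumors, as Isg15 was. Gbp2 rose by 2.49 in tumors against MUC1-CD culture (adjusted p = 0.000179, limma) and Ifitm1 by 4.44 (adjusted p = 0.000179, limma). In MUC1-CD culture against Vector culture Ifitm1 gave 0.35 (adjusted p = 0.259, limma), and Gbp2 gave 0.41 (adjusted p = 0.0402, limma), a call lost in 9 of 15 other settings.

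Interferon ligands, receptors and control genes were a list of 17 with 10 tested. In MUC1-CD culture 3 rose (Socs3, Ifngr1 and Tyk2) and Ptpn11 fell, and in tumors against MUC1-CD culture 1 rose, Ptpn6, and 0 fell by limma at either the adjusted or the unadjusted p. Of all genes, 21.2% rose and 24.9% fell in the first comparison, and 9.82% and 8.97% in the second, at the adjusted p. The medians of the 10 were 0.18 and 0.23. In MUC1-CD culture that median was 0.58 without Vector replicate 1 and −0.17 without Vector replicate 2, and −0.14 with each array divided by its median. The number called, 4, was 7 without Vector replicate 1 and 2 without MUC1-CD culture replicate 1 or 2. In tumors against MUC1-CD culture 0 were called without any 1 of the 4 arrays compared, and 4 without either Vector array. Socs3, a feedback inhibitor of cytokine receptors, had signals of 4.7 and 7.2 in Vector culture, 65.6 and 154.4 in MUC1-CD culture and 178.1 and 185.2 in tumors. Its Vector signals were below the filter at 61.6, so Socs3 was tested only through the arrays of the MUC1-CD groups. Like Ptpn6 below, it was picked for a small p over the 3 groups. It rose by 2.43 ± 0.38 in MUC1-CD culture (adjusted p = 0.00263, limma), and this value was 3.90 with an added 1 and 1.27 with an added 64 in place of 16. Ptpn6, a phosphatase of blood cells, had signals of 49.5 and 45.9 in Vector culture, 35.3 and 39 in MUC1-CD culture and 151 and 88.9 in tumors. All its culture signals were below the filter at 61.6, so it was tested only through its tumor signals. It was higher by 1.32 in tumors than in MUC1-CD culture (adjusted p = 0.033, limma). That call was lost without any 1 of the 4 arrays compared: adjusted p was 0.199 and 0.17 without MUC1-CD culture replicates 1 and 2, and 0.215 and 0.0698 without tumor replicates 1 and 2. It was also lost without a filter (0.0586), after quantile normalization (0.0824) and with the replicate block (0.0509), over a range of 0.00522 to 0.215.

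Relatives from other ubiquitin-like systems, a list of 29 with 23 tested, give a frame for the enzymes above. In MUC1-CD culture 6 rose and 3 fell (all genes: 21.2% and 24.9%), with a median of 0.18. Without Vector replicate 1, 15 were called (9 higher, 6 lower) with a median of 0.07, and without Vector replicate 2 also 15 (10 higher, 5 lower). From MUC1-CD culture to tumors 0 rose and 4 fell by limma (all genes: 9.82% and 8.97%), with a median of −0.10. At an unadjusted p under 0.05, 0 were higher and 8 were lower, where 18.6% and 16.5% of all genes were. Some kin of Herc6 also rose in MUC1-CD culture: Herc1 by 2.39 ± 0.30 (adjusted p = 0.00109, limma) and Herc3 by 2.18 ± 0.17 (adjusted p = 0.000192, limma). Both were picked for a small p over the 3 groups. Herc2 also rose, and Herc4 was not called. A second Herc3 probe set rose by 1.00 (adjusted p = 0.0354, limma), a call lost with each array divided by its median (0.74, adjusted p = 0.0763). Herc3 lies in the same gene family and is not known for ISG15 transfer. Ube2l3, the ubiquitin carrier closest to Ube2l6, rose by 0.77 (adjusted p = 0.000923, limma), or 0.44 with each array divided by its median, and the modifier Sumo2 fell by 1.02 (adjusted p = 0.000184, limma). In tumors against MUC1-CD culture 0 of these 23 were called without any 1 of the 4 arrays compared, and 11 without either Vector array.

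Signals of host cell types moved with the tumor comparison, in which Isg15 and Uba7 rose. Of 18 macrophage genes on the array, 12 were tested, and 8 rose and 1 fell in tumors against MUC1-CD culture. Of all genes, 9.82% rose and 8.97% fell there. The filter used the mean over all 6 arrays, so a marker seen only in tumors, such as Aif1, passed it through the tumor arrays. A rise of such a gene followed from its selection, and the counts of marker genes rising in tumors are descriptions only. The summed signal of the 18 macrophage genes was 1265.5 to 1386.5 in Vector culture, 3505.3 to 3748.7 in MUC1-CD culture and 8018.8 to 8058.3 in tumors. Aif1 was 0.4 and 0.8 in MUC1-CD culture and 604 and 639.3 in tumors, and Ptprc, carried by all white blood cells, was 3.2 and 23 against 63.1 and 65.3. Of 5 endothelial genes tested 4 rose, with sums of 546.9 to 564.5 in Vector culture, 588.5 to 603.8 in MUC1-CD culture and 2963 to 3003.7 in tumors, while the defining markers Pecam1 and Kdr stayed at 38.1 or less on all 6 arrays. All 8 skeletal muscle genes tested rose, with sums of 3022.2 to 3083.7 in MUC1-CD culture and 12449 to 13234 in tumors. In Vector culture, which holds no mouse tissue, that sum was 10171 to 10658, not far below the tumors. Acta1 was 23.6 and 6.1 in Vector culture, 3.7 and 5.1 in MUC1-CD culture and 4971.2 and 5854.5 in tumors. Ckm was 8.6 and 37.3, 5.7 and 36.9, and 276.7 and 297.6 in the same order. Both were below the filter at 61.6 on every culture array, so their testing and their rise rest on the tumor arrays. The 4 muscle genes below the filter have no call. Genes of T, NK, B and plasmacytoid cells had 1 of 12 tested and sums of 3175.3 to 4655.3, 4404.1 to 5049.9 and 6760.3 to 7045 in Vector culture, MUC1-CD culture and tumors. Keratinocyte sums were 603.1 to 669.9, 370 to 416.6 and 405.8 to 459 in the same order. Adipocyte sums were 1787.6 to 2101.4, 497 to 543.4 and 972.5 to 1001.9, highest in Vector culture. The part of host cells in the rise of Isg15, Uba7 and the other interferon-induced genes was not tested. The probe sets are those of rat genes, and how far mouse RNA binds them could not be tested from these signals. This holds for the markers as for the members, so neither a high nor a low marker measures the amount of a host cell type. In such bulk samples more cells of a type and more RNA per cell cannot be told apart. Between the cultures, which hold no mouse tissue, the macrophage sum was also higher in MUC1-CD culture, with Cd14 and Cd163 called higher and Lyz2 lower of 12 tested. Of all genes, 21.2% rose and 24.9% fell in that comparison.

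**Figure D5:**
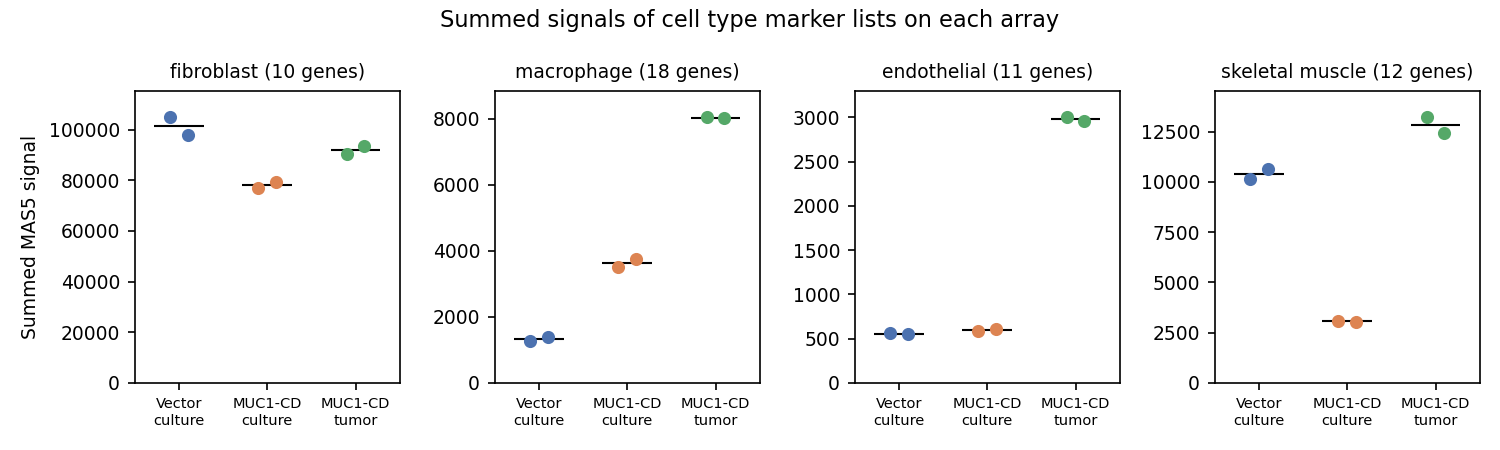
Summed MAS5 signal (linear, from 0) of 4 marker gene lists on each array, 2 arrays per group as points with the mean as a line. Macrophage and endothelial sums are highest on both tumor arrays, the skeletal muscle sum is low in MUC1-CD culture alone, and the fibroblast sum varies least in proportion.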

How the data were processed

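RNA of 6 samples was hybridised to Affymetrix rat whole-genome GeneChips. The deposited values are MAS5 signals, a linear intensity per probe set, per the submitters' processing notes. Neither a MAS5 version nor detection calls were given in these sources. All 6 deposited arrays had the same 2% trimmed mean (500.2), and this scaling was kept. Of 31099 probe sets, 57 were controls. The platform annotation named a single gene for 20826, several for 436 (left unnamed) and did not list 9780. Symbols were updated to GRCr8 (20758 matched), and chromosomes are those of GRCr8.

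Signals were transformed as log2(signal + 16), and 18625 probe sets passed a filter on mean signal at the 40th percentile (61.6). Group was the single term of 1 limma 3.58.1 model (R 4.3.3) over the 6 arrays, with eBayes and a trend, leaving 3 residual degrees of freedom (prior: median 3.7). The 2-sided p was adjusted with Benjamini-Hochberg over those 18625, and calls were made at 0.05. For each of 10037 genes the tested probe set of highest mean signal stands for the gene. The shared spread makes p values against Vector possibly too small and those between the other groups too large. P values measure only the spread between these samples, since separate cultures or animals are not stated, and with 2 arrays per group their precision is low.

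The members and lists were chosen with earlier results of these data known. Named are all members, all tested partners, up to 4 genes of each other list with the smallest p over the 3 groups, and the 5 genes closest to Isg15. Marker genes named are the defining ones of their cell type. Tyk2, Herc2, Herc4, Cd14, Cd163 and Lyz2 are named to complete a count and were chosen after their values were seen. Alternatives were added constants of 1 and 64, no filter and the 60th percentile, median scaling, quantile normalization, eBayes without trend, only the 4 arrays compared, replicate number as a block, leaving out each array, and the mean of a gene's probe sets. The code was tested on simulated data.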

Additional observations from a re-analysis of the deposited data

How the results depend on the processing

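Of the values of single members, 301 kept their direction, of which 10 gained and 22 lost a call, and 8 changed sign without a call on either side. Of the list and probe set counts 204 stayed within 1.5 times and 81 did not, and of the medians 225 kept their sign, 24 of them moving beyond the replicate spread, and 15 changed sign. Leaving out 1 array gave 4413 to 11519 called probe sets (8522 with all arrays) in MUC1-CD culture against Vector culture, 607 to 8048 (2952) in tumors against MUC1-CD culture and 5958 to 12401 (9589) in tumors against Vector culture. The number of members called was then 3 to 6, 0 to 4 and 4 to 7, and their median change 0.09 to 0.59, 0.19 to 0.22 and 1.19 to 1.53. The number of partners called was 4 to 7, 0 to 4 and 4 to 6, with medians of 0.08 to 0.47, −0.30 to −0.13 and −0.21 to 0.18. In tumors against MUC1-CD culture only the 4 arrays compared gave 8049 probe sets, 4 members (3 higher, 1 lower) and 5 partners. In that comparison 1 member was called without a filter, with the 60th percentile, with quantile normalization or with the replicate block, and 2 partners with the mean of their probe sets. With each array divided by its median, the members' median was −0.054 in MUC1-CD culture against Vector culture, −0.064 in tumors against MUC1-CD culture and 0.90 in tumors against Vector culture. The partners' median was then −0.042, −0.48 and −0.59 in the 3 comparisons, with 3 partners called in tumors against MUC1-CD culture. Under the same scaling, medians changed sign for the other interferon-induced genes (−0.049), the relatives (−0.14) and ligands and receptors (−0.14) in MUC1-CD culture against Vector culture, and for ligands and receptors in tumors against MUC1-CD culture (−0.039) and against Vector culture (−0.024). The relatives' median in tumors against Vector culture (−0.19) was 0.0018 without Vector replicate 1, 0.031 without Vector replicate 2 and 0.043 with the mean of all probe sets. The partners' median there (−0.017) was 0.28 with the mean of all probe sets. The cause of these shifts was not tested.

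Replicate numbers did not pair the samples: deviations of same-numbered samples correlated at −0.0184, −0.027 and −0.0445. With the replicate block the calls among members in the other comparisons were as many as without it (5 and 6), and the called probe sets were 8130, 2390 and 9208. In tumors against MUC1-CD culture the block ended the calls of Uba7 (adjusted p = 0.0591) and Ptpn6 (0.0509), and in MUC1-CD culture against Vector culture that of Gbp2 (0.0589). Signal near background limits what can be tested: 2 of the 3 probe sets of Uba7 lay below the filter. No sample group was large enough for a check on single outlying arrays.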
